A study of Mus musculus with 4 samples.

Results

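The genes described here are 10 regulators and targets of the integrated stress response that centers on the transcription factor ATF4, namely Atf4, Atf5, Atf3, Ddit3, Trib3, Ppp1r15a, Nupr1, Chac1, Sesn2 and Vldlr. They were selected by gene symbol from tables of 54752 gene identifiers, where the 10 symbols correspond to 11 identifiers. RNA was sequenced from the epidermis of 4 C57BL/6 mouse pups at postnatal day 0, and the 2 Skiv2l fl/fl K14-Cre pups (labelled Skiv2lf/fl;K14-Cre), called knockouts here, were compared with 2 littermates labelled Skiv2l ctl. Both Skiv2l alleles of the knockout pups are floxed and the keratin 14 promoter drives Cre throughout, so that Skiv2l, whose product is the RNA helicase serving the cytoplasmic exosome, is deleted by design in keratinocytes and kept in the other cells of the epidermis. The titles call the controls WT, while by the study's breeding scheme a Skiv2l ctl pup carries Skiv2l fl/fl, Skiv2l fl/+ or Skiv2l fl/+ K14-Cre, and which of these each control carried is not labelled. The controls may thus include Cre-bearing and Cre-free pups, and by that scheme a floxed allele is present in both groups. The values are FPKM (sequenced fragments scaled to transcript length and to the size of the library) as deposited, so that levels can be compared between genes.

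In the integrated stress response, kinases that sense starvation, misfolded protein, viral RNA or heme loss phosphorylate the initiation factor eIF2. General translation then falls, while the Atf4 mRNA, whose leader carries upstream open reading frames, is translated more. ATF4 protein pairs with other bZIP factors, binds the C/EBP-ATF response element (CARE) and induces genes for amino acid uptake, amino acid synthesis and tRNA charging, together with its own feedback genes. ATF4 is also a known output of mTORC1 signaling in growing cells. RNA levels report neither eIF2 phosphorylation nor the amount of ATF4 protein.

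The promoters of the 10 genes were searched for 2 elements that ATF and C/EBP factors are known to bind, the CARE core TGATGNAA and the palindromic cyclic AMP response element (CRE) TGACGTCA, on both strands of the 250 bases upstream of each RefSeq transcription start on GRCm38.p6. A CARE core was found for 4 of the 10 genes, Atf3, Nupr1, Chac1 and Vldlr, and in 3.91% of 27025 genes in the RefSeq table (3.45% of 32851 start windows). Each of the 4 matches read TTGCATCA on the gene's own strand, the reverse complement of the core. They start 110 bases upstream of the start site in Atf3 and in Nupr1, 193 in Chac1 and 200 in Vldlr (the second of its 2 annotated starts). Only Ppp1r15a among the 10 held a full CRE, which starts 12 bases upstream of its start and which 1.77% of all genes hold. The 5 upstream stretches follow, 5′ to 3′ on the gene's strand, with the matched element in capitals.
Atf3, chr1:191183334-191183583, minus strand: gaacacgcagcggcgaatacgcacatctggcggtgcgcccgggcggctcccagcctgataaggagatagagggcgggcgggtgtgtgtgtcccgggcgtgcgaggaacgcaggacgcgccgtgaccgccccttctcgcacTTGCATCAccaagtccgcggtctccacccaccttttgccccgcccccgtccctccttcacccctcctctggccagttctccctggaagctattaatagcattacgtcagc
Nupr1, chr7:126625471-126625720, minus strand: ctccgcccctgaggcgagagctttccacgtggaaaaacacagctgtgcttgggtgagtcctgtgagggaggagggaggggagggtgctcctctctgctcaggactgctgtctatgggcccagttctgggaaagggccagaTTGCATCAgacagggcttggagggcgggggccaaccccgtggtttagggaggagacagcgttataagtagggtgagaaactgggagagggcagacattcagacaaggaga
Chac1, chr2:119350992-119351241, plus strand: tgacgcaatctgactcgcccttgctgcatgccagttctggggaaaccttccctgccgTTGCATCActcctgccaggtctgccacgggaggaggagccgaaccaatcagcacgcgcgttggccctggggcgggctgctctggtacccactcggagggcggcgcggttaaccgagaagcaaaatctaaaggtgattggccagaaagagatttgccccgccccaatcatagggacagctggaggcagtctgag
Vldlr, chr19:27216770-27217019, plus strand: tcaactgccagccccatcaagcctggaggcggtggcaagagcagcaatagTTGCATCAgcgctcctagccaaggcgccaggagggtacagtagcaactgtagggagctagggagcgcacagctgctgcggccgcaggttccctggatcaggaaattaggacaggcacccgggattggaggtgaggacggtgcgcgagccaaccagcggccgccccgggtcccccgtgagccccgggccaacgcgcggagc
Ppp1r15a, chr7:45526269-45526518, minus strand: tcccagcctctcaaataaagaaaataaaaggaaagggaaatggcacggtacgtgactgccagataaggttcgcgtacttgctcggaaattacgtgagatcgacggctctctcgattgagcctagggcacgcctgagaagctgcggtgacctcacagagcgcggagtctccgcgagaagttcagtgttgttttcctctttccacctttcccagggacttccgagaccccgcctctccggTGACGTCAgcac
No match of either element was present in the same windows of Atf4, Atf5, Ddit3, Trib3 and Sesn2, which says only that these letters are absent from these windows. The shorter CRE core TGACG, which also forms part of the full CRE, was present in Atf3, Chac1, Trib3, Ppp1r15a and Atf4, which is 5 of 10 genes against 19.8% of all genes. The NF-Y box CCAAT was present in 6 of 10 against 37.5%, and the endoplasmic reticulum stress element (ERSE), which contains that box, in 0 of 10 against 0.13%.

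The leaders of the transcripts, read from the GENCODE M21 sequences, differed between the members. In the principal Atf4 transcript the leader of 594 bases holds 3 upstream ATG codons, of which 2 open frames that close before the coding region and 1 opens a frame that runs out of frame into it. Atf5, the closest relative of Atf4 in the group, has 2 in a leader of 373 bases, again with 1 overlapping frame. Ppp1r15a has 3 and Ddit3 has 2, all closed before the coding region, while Atf3, Nupr1 and Sesn2 have 1 each and Trib3, Chac1 and Vldlr have none. An upstream ATG was present in 49.7% of the 13204 tested genes with an annotated leader, and an overlapping out-of-frame one in 16.3%.

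Depth, read as the most frequent ratio of coverage to FPKM in a library, corresponded to 5.843 to 6.274 aligned gigabases per library under the usual definition of these units, and counting error could not be computed from FPKM. The targeted gene Skiv2l measured 19.3 and 19.1 FPKM in Skiv2l ctl and 10.8 and 8.55 in Skiv2l fl/fl K14-Cre. The second knockout library had 16138 genes above an FPKM of 0.5, against 17384 to 17761 in the other 3. The 8 keratinocyte markers summed to between 24660 and 28530 FPKM in each library, with 2 called higher, 2 lower and 4 not called (limma). Krt14, the basal keratin whose promoter drives Cre here, measured 1736 and 1812 FPKM and then 7381 and 7312, the desmosomal cadherin Dsg3 23.6 and 25.8 and then 130.5 and 116, and the cornified envelope gene Lor 828 and 868 and then 448 and 444. Of the other cell types, 7 fibroblast markers summed to 61.4 and 69.1 FPKM in Skiv2l ctl and 22.2 and 25.1 in Skiv2l fl/fl K14-Cre, mostly from Dcn (56.96 and 62.7, then 16.9 and 21.4), with 2 of the 5 tested called lower and 3 not called. Likewise 8 leukocyte markers summed to 15.9 and 23.9 and then 14.1 and 12.6, 5 erythroid genes to 134 and 125 and then 62.0 and 80.7, and 6 melanocyte markers to 57.7 and 64.7 and then 60.4 and 73.7. The 4 endothelial and 4 skeletal muscle markers stayed below a summed 1 FPKM in every library, and of 3 adipocyte markers Adipoq was listed at 0 in all 4 while Fabp4, at 1.78 and 1.45 and then 55.8 and 57.8, made up nearly the whole sum. The part of these differences in the results was not tested. Fewer cells of a type and less RNA per cell cannot be told apart in these bulk samples.

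Of the 10 genes, 5 were higher in Skiv2l fl/fl K14-Cre epidermis at an adjusted p under 0.05 (limma on log2(FPKM + 1), adjusted over 13609 protein-coding genes), namely Trib3, Ppp1r15a, Atf4, Atf5 and Sesn2, and 0 were lower. Among all tested genes 8.99% were called higher and 25.4% lower, which is 34.4% in either direction. At an unadjusted p under 0.05 (limma), 7 of the 10 were higher and 0 lower. At that threshold the 13609 tested genes included 1617 higher and 4860 lower. Both Skiv2l fl/fl K14-Cre libraries lay above both controls for 8 of the 10, as they did for 18.2% of all tested genes, and below both for none, against 55.3%. The median log2 fold change was 0.585 over the 10 genes and -0.20 over all tested genes. With library medians equalized the latter became -0.03 and the calls over all genes went from 1223 higher and 3455 lower to 1894 and 1623. Quantile normalization gave 1683 higher and 1917 lower over all genes. Both this and the scaling to equal medians called 7 of the 10 higher, adding Ddit3 and Vldlr. Without the first or without the second control library, fewer of the 10 and fewer of all tested genes were called higher. Of the 10, Atf4, Atf5 and Trib3 remained. For 2 pups against 2, the smallest two-sided p that exact permutation can give is 0.333, so each call rests on the spread that limma shares across genes.

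**Figure D1:**
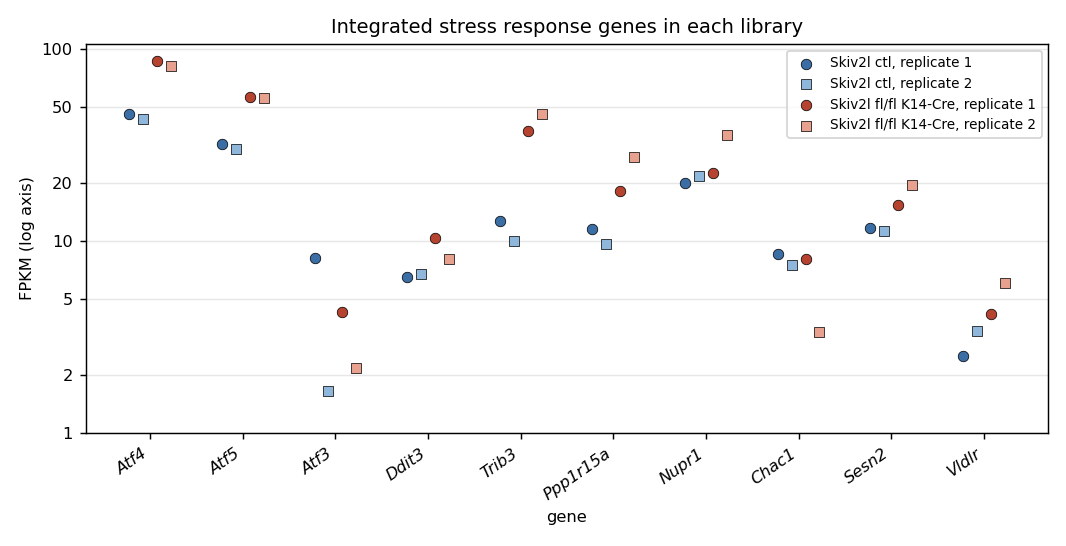
FPKM of the 10 genes in each of the 4 libraries, on a log axis, with 1 point per pup. The 2 knockout libraries (red) lie above both controls (blue) for all genes but Atf3 and Chac1.

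The bZIP factors split into 2 that rose and 2 that were not called. Atf4 (ENSMUSG00000042406.8, chromosome 15, 80255184 to 80257541 on GRCm38, plus strand), the central effector, measured 45.6 and 43.2 FPKM in Skiv2l ctl and 87.1 and 81.4 in Skiv2l fl/fl K14-Cre. The groups were far apart relative to the gap within each, and the mean FPKM was 1.90 times that of the controls. Its log2 fold change was 0.91 (standard error, SE, 0.08, limma adjusted p = 0.0011), and only 3.6% of all tested genes had a larger rise. Atf4 was the most abundant of the 10 in both genotypes. Atf5 (ENSMUSG00000038539.15, chromosome 7, 44812256 to 44816658, minus strand), a paralog that is under the same kind of translational control, measured 31.9 and 30.2 FPKM in control pups and 56.4 and 55.5 in knockout pups. This was a log2 fold change of 0.83 (SE 0.08, limma adjusted p = 0.00125) and the smallest gap between the 2 knockouts of any of the 10 genes. Exons of Atf5 overlap exons of Nup62 and Il4i1 on the other strand, and whether strand was used in counting is not given in the sources used here. Nup62, at 24.9 and 31.6 and then 22.65 and 19.0 FPKM, was lower in both knockouts than in either control, and Il4i1 stayed below 1 FPKM.

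Ddit3 (ENSMUSG00000025408.15, chromosome 10, 127290774 to 127296288, plus strand) encodes CHOP, the factor that ATF4 induces under prolonged stress. It measured 6.49 and 6.70 FPKM in control pups and 10.4 and 8.08 in knockout pups. Both knockouts were higher, at 1.58 and 1.23 times the control mean, and the log2 fold change of 0.42 (SE 0.14) was not called (limma adjusted p = 0.0551). Its unadjusted 95% interval ran from 0.09 to 0.75. Without the second knockout library it was 0.59 with a limma adjusted p of 0.0196, and without the first 0.26. It was also called under both scalings of the libraries. A second identifier with the same symbol (ENSMUSG00000116429.1, from 127290829) was listed at 0 in all 4 libraries and was not tested, and it shares 1.81% of the 75-base stretches of Ddit3. Exons of Ddit3 also overlap those of Gm4189 and Mars on the other strand, and Mars measured 18.3 and 18.0 FPKM in control pups and 22.5 and 22.1 in knockout pups.

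Atf3 (ENSMUSG00000026628.13, chromosome 1, 191170296 to 191218039, minus strand), a factor induced both by ATF4 and by acute signals outside this pathway, showed the least regular values of the group. It measured 8.16 and 1.65 FPKM in control pups and 4.29 and 2.18 in knockout pups. Both knockout values fell between the 2 controls, whose gap of 1.79 on the log2(FPKM + 1) scale was exceeded by only 0.184% of tested genes. The log2 fold change was -0.27 with an SE of 0.56 (limma adjusted p = 0.733) and an unadjusted 95% interval of -1.64 to 1.11. Without the first Skiv2l ctl library it was 0.63, and without the second -1.16, so the direction changed with the control left out. It was also above 0, at 0.10, without the second knockout library. Of 22 genes of the immediate early response and of tissue handling, 21 were higher in the first control than in the second, 5 of them at least 2-fold (Fos, Fosb, Egr1, Dusp1 and Nr4a1) against 0 in the other direction. Fos, a subunit of AP-1, measured 103 and 24.6 FPKM in control pups and 30.7 and 96.3 in knockout pups. Fosb measured 8.92 and 1.62 and then 1.13 and 1.05. The share of all tested genes that were higher in the first control was not computed. Between the knockouts, 15 of the 22 genes were higher in the second, while Atf3 was lower in it. The part of the 22 genes in the Atf3 values was not tested.

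**Figure D2:**
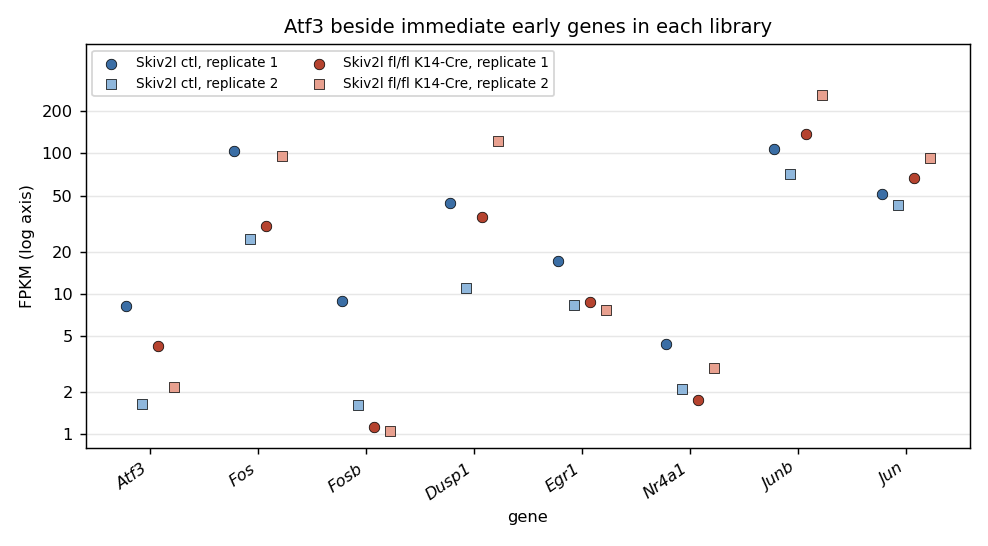
FPKM of Atf3 and of 7 immediate early genes in each library, on a log axis. In the first control library (dark blue circle) Atf3, Fos, Fosb, Dusp1, Egr1 and Nr4a1 are at least 2-fold above the second control, while Junb and Jun are above it by less.

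The largest rises among the 10 genes were those of the feedback genes Trib3 and Ppp1r15a. Trib3 (ENSMUSG00000032715.9, chromosome 2, 152337422 to 152344032, minus strand) encodes a pseudokinase that binds ATF4 and CHOP and restrains them. It measured 12.7 and 9.96 FPKM in control pups and 37.5 and 45.8 in knockout pups, 3.67 times the control mean. The log2 fold change of 1.79 (SE 0.15, limma adjusted p = 0.000771) was the largest of the 10 genes, and 1.12% of all tested genes had a larger one. Trib3 was called in each fit that left out 1 library, with values between 1.63 and 1.95. Ppp1r15a (ENSMUSG00000040435.12, chromosome 7, 45522916 to 45526268, minus strand) encodes GADD34, which brings protein phosphatase 1 to eIF2 and so closes the response. It measured 11.5 and 9.71 FPKM in control pups and 18.1 and 27.4 in knockout pups, a log2 fold change of 1.01 (SE 0.19, limma adjusted p = 0.012). The second knockout was well above the first, and without the first or the second control library the limma adjusted p was 0.0596 or 0.102. Its exons overlap those of Tulp2 on the other strand, which stayed below 1 FPKM in each library. Its constitutive relative Ppp1r15b measured 22.3 and 19.5 FPKM in control pups and 21.1 and 22.2 in knockout pups, a log2 fold change of 0.05 (limma adjusted p = 0.719).

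Nupr1 (ENSMUSG00000030717.9, chromosome 7, 126623249 to 126630861, minus strand), a small chromatin-associated stress protein, measured 20.1 and 21.7 FPKM in control pups and 22.6 and 35.6 in knockout pups. The first knockout lay just above the higher control and the second at 1.70 times the control mean. The log2 fold change of 0.42 (SE 0.20) was not called (limma adjusted p = 0.145, unadjusted 95% interval -0.06 to 0.91). It was 0.74 and called without the first knockout library (limma adjusted p = 0.00703) and 0.11 without the second.

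Of the 3 effectors outside transcription, 1 was called. Sesn2 (ENSMUSG00000028893.8, chromosome 4, 132492032 to 132510501, minus strand) encodes sestrin 2, a leucine sensor that restrains mTORC1. It measured 11.6 and 11.3 FPKM in control pups and 15.4 and 19.5 in knockout pups, a log2 fold change of 0.56 (SE 0.13, limma adjusted p = 0.0205). The controls were nearly equal and both knockouts were higher, but the limma adjusted p was 0.109 or 0.13 without the first or the second control. Vldlr (ENSMUSG00000024924.14, chromosome 19, 27216484 to 27254231, plus strand), the very low density lipoprotein receptor, had the lowest control level of the 10, 2.53 and 3.40 FPKM, and measured 4.17 and 6.04 in knockout pups. Its log2 fold change of 0.61 (SE 0.19, limma adjusted p = 0.0509) was just outside the threshold, and it was 0.84 without the first knockout library (limma adjusted p = 0.0248) and 0.39 without the second. Chac1 (ENSMUSG00000027313.3, chromosome 2, 119351229 to 119354381, plus strand), a glutathione-degrading enzyme that is usually among the most responsive ATF4 and CHOP targets, measured 8.57 and 7.53 FPKM in control pups and 8.07 and 3.35 in knockout pups. The first knockout thus lay between the controls and the second at 0.416 times their mean. The log2 fold change was -0.52 (SE 0.32, limma adjusted p = 0.24, unadjusted 95% interval -1.31 to 0.26). It was -1.05 and called without the first knockout library (limma adjusted p = 0.0063) and 0.0052 without the second.

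**Figure D3:**
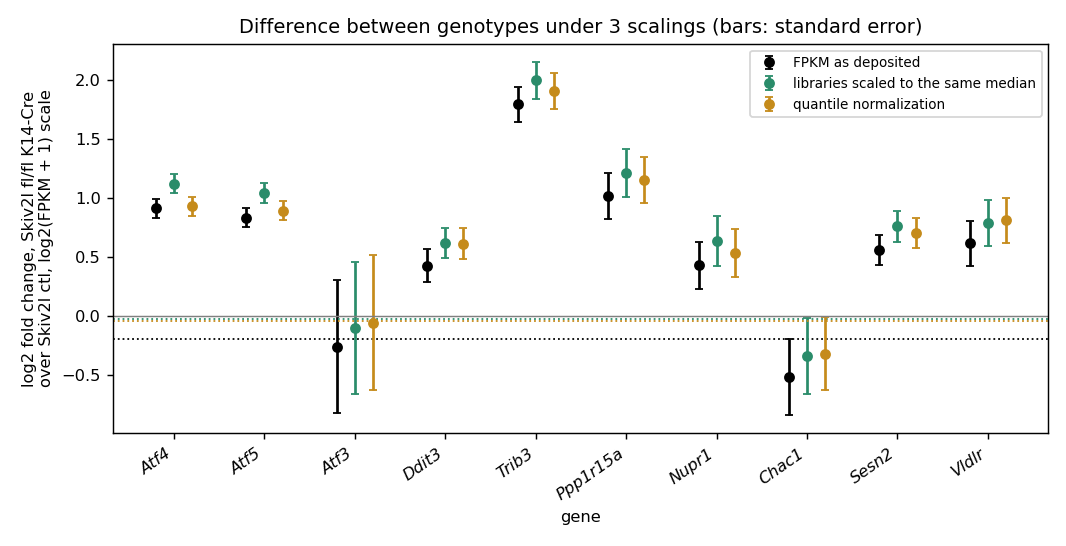
Log2 fold change of the 10 genes between genotypes with its standard error, for FPKM as deposited and with each library scaled to the same median or quantile normalized, with dotted lines at the median of all tested genes in each case. All genes but Atf3 and Chac1 lie above 0 by more than their standard errors under the 3 scalings, and Atf3 and Chac1 lie below 0.

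The control levels spanned 44.4 FPKM for Atf4 to 2.96 for Vldlr, against a median of 7.81 over all tested genes. In descending order of the control mean they were Atf4, Atf5, Nupr1, Sesn2, Trib3, Ppp1r15a, Chac1, Ddit3, Atf3 and Vldlr. Sesn2, Trib3 and Ppp1r15a were within the spread of the controls of each other at 11.5, 11.3 and 10.6 FPKM, and Atf3 overlapped each of its neighbors. In the knockouts the order was Atf4, Atf5, Trib3, Nupr1, Ppp1r15a, Sesn2, Ddit3, Chac1, Vldlr and Atf3, so that Trib3 stood above Nupr1 and Sesn2, and Chac1 below Ddit3. Trib3 at 37.5 and 45.8 FPKM stood above both values of Nupr1, while Nupr1 and Ppp1r15a overlapped.

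The 2 Skiv2l fl/fl K14-Cre pups differed from each other in these genes. On the log2(FPKM + 1) scale, 8 of the 10 genes had a gap between the knockouts above 0.255, the upper quartile of all tested genes, whose median gap was 0.141. For the 2 Skiv2l ctl pups 4 of the 10 lay above the corresponding upper quartile of 0.197, and the median gap was 0.11. Atf4 and Atf5, at -0.10 and -0.02 (second minus first knockout), were the 2 exceptions. Of the other 8, Nupr1 (0.64), Ppp1r15a (0.57), Vldlr (0.44), Sesn2 (0.32) and Trib3 (0.28) were higher in the second knockout, and Chac1 (-1.06), Atf3 (-0.74) and Ddit3 (-0.33) were lower in it. Chac1, Atf3 and Ddit3 thus differed between the 2 pups in the opposite direction to those 5 genes. Vegfa, the vascular growth factor, and Ddit4, an mTORC1 inhibitor, both of which hypoxia also induces, were also highest in the second knockout. Vegfa measured 11.5 and 9.89 FPKM in control pups and 14.98 and 48.9 in knockout pups, and Ddit4 24.95 and 29.8 and then 27.6 and 79.8. Neither was called (limma adjusted p = 0.0844 and 0.214), and their part in the gap was not tested.

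**Figure D4:**
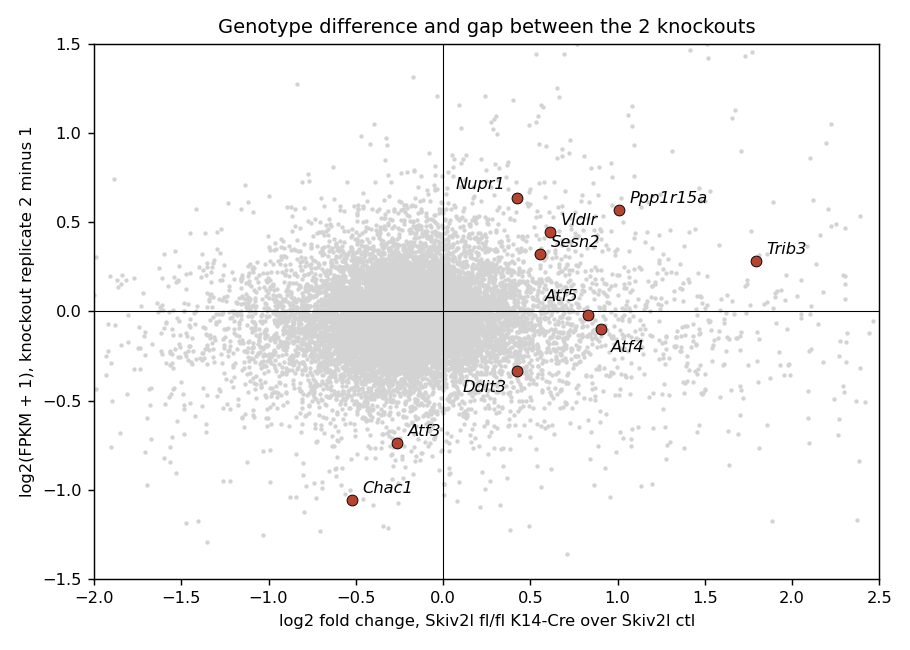
For each tested gene (grey) and the 10 genes (red), the log2 fold change between genotypes is plotted against the difference between the 2 knockout libraries on the log2(FPKM + 1) scale, with points beyond the axes not drawn. Atf4 and Atf5 sit close to 0 on the vertical axis, Nupr1 and Ppp1r15a near 0.6 and Chac1 near -1.06.

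The known targets of ATF4 outside the 10 genes were mostly higher. Of 50 listed, 47 passed the FPKM filter, with 25 called higher, 3 lower and 19 not called (limma, adjusted over all tested genes), beside 8.99% and 25.4% of all genes. Their median log2 fold change was 0.41. The 6 largest rises were those of Slc7a3, Stc2, Slc7a11, Bcat1, Aldh1l2 and Eif4ebp1. Slc7a3, a cationic amino acid transporter, went from 0.155 and 0.156 FPKM in control pups to 4.997 and 4.51 in knockout pups. Stc2, a secreted glycoprotein that ATF4 induces, went from 0.742 and 0.601 to 6.01 and 8.69, and the mitochondrial folate enzyme Aldh1l2 from 1.66 and 1.43 to 7.004 and 8.04. Eif4ebp1, the translational repressor that mTORC1 phosphorylates, measured 9.23 and 8.10 FPKM and then 29.6 and 33.0, a log2 fold change of 1.74 (SE 0.11, limma adjusted p = 0.000309). Asns, asparagine synthetase and a classical ATF4 target, measured 18.0 and 18.0 and then 44.6 and 37.6, a log2 fold change of 1.14 (SE 0.11, limma adjusted p = 0.0011). These exceeded the fold change of Atf4 itself, as Trib3 and, by a small margin, Ppp1r15a did.

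The 3 targets that fell were Phgdh, Cbs and Slc1a4. Phgdh, which opens serine synthesis, went from 67.4 and 67.0 FPKM to 42.3 and 37.5, a log2 fold change of -0.74 (SE 0.09, limma adjusted p = 0.00273). Cbs, of the transsulfuration pathway, had a log2 fold change of -0.87 and Slc1a4, a neutral amino acid transporter, -0.55. With the libraries scaled to the same median 31 targets were called higher and 1 lower, beside 1894 and 1623 of all 13609 tested genes. After quantile normalization the counts were 28 and 1, beside 1683 and 1917. For the targets, the eIF2 machinery and the bZIP partners together, 29 genes were called higher and 6 lower with FPKM as deposited. The shares of all tested genes were 8.99% and 25.4%. Fewer genes, both of these lists and of all tested genes, were called when either control library was left out. Fgf21 and Gdf15, the secreted hormones of this response, stayed below an FPKM of 0.5 in every library and were not tested, and Lamp3 was listed at 0 throughout. Of the 38 targets with a RefSeq promoter, 9 held a CARE core in the window described above (1 of them not tested), and 5 of these (Asns, Pck2, Slc7a11, Aars and Herpud1) were called higher. Among the 29 without one 10 were called higher, 3 lower and 14 not called, and 2 were not tested. The other 12 targets, which had no entry in the promoter table, held the remaining 10 higher calls, among them Slc7a3, Aldh1l2 and Eif4ebp1. Of the 10 regulators, 0 of the 4 with a CARE core and 5 of the 6 without one were called higher. Vldlr, among those 4, was just outside the threshold and was called under both scalings of the libraries. The share called among all genes with a core was not computed, and a link between core and call was not tested.

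**Figure D5:**
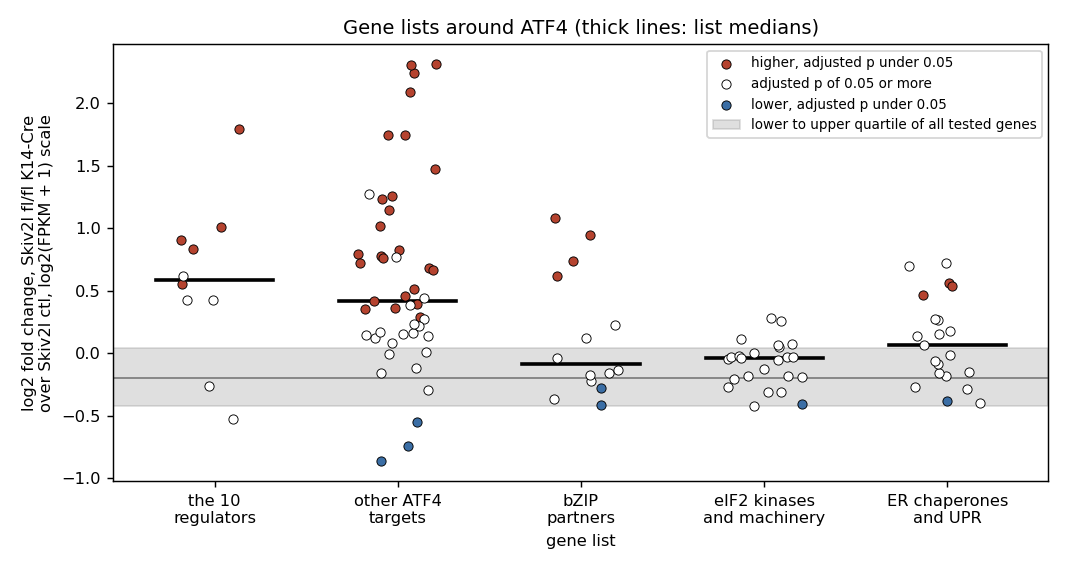
Log2 fold changes of the tested genes of 5 lists, each point a gene colored by its call, with thick lines at the list medians and the grey band from the lower to the upper quartile of all 13609 tested genes. The medians are 0.585 for the 10 regulators and 0.41 for the other ATF4 targets, and the eIF2 machinery lies around -0.04.

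Upstream of ATF4, the eIF2 kinases and the eIF2 machinery were measured by their transcripts. Of 24 genes 0 were called higher and 1 lower by limma, beside 8.99% and 25.4% of all tested genes. At an unadjusted p under 0.05 (limma) 2 were higher and 5 lower, beside 1617 and 4860 of all 13609 tested genes. The median log2 fold change of the 24 was -0.04. Eif2ak1 (HRI, the heme sensor) measured 10.3 and 9.76 FPKM in control pups and 9.56 and 10.1 in knockout pups, and Eif2ak3 (PERK, the endoplasmic reticulum sensor) 5.80 and 6.36 and then 5.55 and 6.13. Eif2ak2 (PKR, the double-stranded RNA sensor) measured 6.23 and 6.48 and then 5.81 and 5.18, a log2 fold change of -0.18 (unadjusted 95% interval -0.45 to 0.09). Eif2ak4 (GCN2, which senses uncharged tRNA and stalled ribosomes) measured 4.44 and 3.85 and then 3.20 and 2.51, a log2 fold change of -0.42 that was not called (limma adjusted p = 0.065). The called gene was Dele1, which relays mitochondrial stress to HRI, at 9.65 and 10.4 FPKM in control pups and 7.14 and 7.48 in knockout pups. With the libraries scaled to the same median 3 of the 24 were called higher and 0 lower, beside 1894 and 1623 of all 13609 tested genes. The list median then turned positive, at 0.145, against -0.03 over all tested genes.

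Among 14 tested bZIP partners of ATF4 and their relatives, 4 were called higher (Maf, Nfe2l2, Cebpd and Jdp2) and 2 lower (Cebpa and Atf6b), beside the same 8.99% and 25.4%. Nfe2l2, which encodes the antioxidant factor NRF2, rose from 16.2 and 19.0 FPKM to 30.7 and 39.3, a log2 fold change of 0.95 (SE 0.14, limma adjusted p = 0.00515). The direct partners Cebpb and Cebpg had log2 fold changes of 0.12 and 0.22 and were not called (limma adjusted p = 0.429 and 0.102). With library medians equalized 5 were called higher and 0 lower, beside 1894 and 1623 of all 13609 tested genes. Of 21 chaperones and sensors of the unfolded protein response, 3 were called higher (Xbp1, Ern1 and Edem1) and 1 lower (Pdia4), beside 8.99% and 25.4% of all tested genes. After equalizing the medians 8 of the 21 were called higher and 0 lower, beside the same 1894 and 1623. Hspa5, the main chaperone of the endoplasmic reticulum, measured 66.2 and 65.5 FPKM and then 73.7 and 71.6, a log2 fold change of 0.14 (limma adjusted p = 0.197).

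The genes whose 4 values were most like those of Atf4, by Euclidean distance of log2(FPKM + 1) from the control mean over the 4 libraries, were Fam110c, Ippk and Map7d1, at distances of 0.0294, 0.0373 and 0.05. Fam110c was low, at 0.637 and 0.584 FPKM in control pups and 2.09 and 1.89 in knockout pups. The log2(FPKM + 1) scale understates fold changes at such levels. Ippk, an inositol phosphate kinase, measured 6.42 and 5.90 FPKM in control pups and 13.1 and 11.8 in knockout pups. Those most like Trib3 were Lrp8, Eif4ebp1 and Aldh1l2, at 0.145, 0.16 and 0.171. Lrp8, a lipoprotein receptor related to Vldlr, measured 1.63 and 1.33 FPKM in control pups and 7.02 and 9.02 in knockout pups, and the other 2 belong to the list of ATF4 targets above. With 4 libraries this is a description of likeness over few points.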

How the data were processed

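Total RNA from the epidermis of 4 P0 pups was sequenced, 2 per genotype by the genotype label. Reads were processed by the authors with an institutional RNA-seq workflow on GRCm38 (submitters' processing notes), and the aligner, its version and strand setting are not given in the sources used here. FPKM as deposited counts fragments relative to transcript length and library size. TPM as deposited is scaled to a common total per library, and the deposited coverage signal is mean per-base depth. Reads were not used here and depth in counts is unknown. The 2 pups of a genotype are different animals. Their number limits the precision of every value.

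FPKM was summed per gene identifier. Gene coordinates matched GENCODE M21 for 54029 of 54752 identifiers. Of 21921 protein-coding genes, the 13609 with FPKM above 0.5 in at least 1 library were tested on log2(FPKM + 1) by a two-sided test in limma 3.58.1 under R 4.3.3 (lmFit, then trended eBayes). Benjamini-Hochberg adjustment covered all of them, with calls at an adjusted p under 0.05. A fold change on this scale understates that of low genes. The procedure was run on simulated data in which a small set of genes changed, equally up and down. The wider downward shift of these data was not part of that simulation. The 10 genes and all gene lists (eIF2 machinery, bZIP partners, ATF4 targets, unfolded protein response, immediate early genes, p53 targets and cell type markers) were chosen with earlier results of these data known, so no test over a list is given. Beside the 10 genes, up to 6 called genes of a list with the largest change, 12 fixed genes and the 3 genes nearest to Atf4 and to the most changed member could be named. Fos, Fosb, Egr1, Dusp1, Nr4a1, Vegfa, Adipoq, Fgf21, Gdf15, Lamp3, Cdkn1a, the ATF4 targets with a CARE core that the rule does not name and the genes that overlap a member were added to these names once values were known. The alternatives were a pseudocount of 0.1, other filters, TPM, scaling to equal medians, a block for the replicate number, quantile normalization, untrended eBayes, all genes of the table, and leaving out each library. Promoters came from RefSeq (all 10 symbols matched), and leaders and 75-base stretches from GENCODE M21 transcripts. Stretches were compared in the orientation of the transcripts only, and reverse complements were not searched. In that comparison Ddit3 alone among the 10 genes had stretches that occur in another gene.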

Additional observations from a re-analysis of the deposited data

How the results depend on the processing

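Atf4 and Atf5 were called higher under each of the 13 alternatives (limma adjusted p at most 0.0366 and 0.0327), and Trib3 under 12 of them. Without a filter on FPKM, 475 genes were called higher and 927 lower, 2 of the 10 regulators and 13 genes of the 3 pathway lists (eIF2 machinery, partners and targets) were called higher and 0 of these lists lower (6 at an unadjusted p under 0.05, limma). Trib3 at 1.79, Ppp1r15a at 1.01 and Sesn2 at 0.56 then missed the threshold, Trib3 with an adjusted p of 0.0512. With median scaling 1894 genes were called higher and 1623 lower, in place of 1223 and 3455, so that the share of higher calls rose, and with quantile normalization 1917 were lower. Pathway genes called lower were 6 as deposited, 1 with median scaling and 2 with quantile normalization. Ddit3 was called at 0.61 under both, at 0.42 when FPKM had to exceed 1 in 2 or more libraries, and Vldlr at 0.78, 0.81 and 0.61 respectively. Vldlr was also called at 0.75 with a pseudocount of 0.1 and at 0.66 with TPM.

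With the replicate number as a block 8 of the 10 were called higher, adding Ddit3 at 0.42, Nupr1 at 0.42 and Vldlr at 0.61. In that fit 1264 of all 13609 tested genes were called higher and 3393 lower. The numbers do not mark pairs of animals in the labels, and the deviations of same-numbered libraries had a correlation of -0.077 over the tested genes.

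With 1 library left out, 542 to 1160 genes were called higher and 804 to 3226 lower, 3 to 7 of the 10 regulators higher and 0 to 1 lower, and 13 to 27 pathway genes higher and 1 to 6 lower. Each count was lowest without a control library except that of lower regulators, which was 1 (Chac1) without the first knockout. The log2 fold change ranged from -1.16 to 0.63 for Atf3, -1.05 to 0.0052 for Chac1, 0.26 to 0.59 for Ddit3, 0.11 to 0.74 for Nupr1, 0.72 to 1.29 for Ppp1r15a, 0.39 to 0.72 for Sesn2 and 0.39 to 0.84 for Vldlr. Apart from the smaller number of samples in these fits, the cause of each change was not tested. The number of pups, and values without counts, limit what can be resolved for genes at low FPKM such as Atf3 and Vldlr.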

Other observations

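Of 15 target genes of p53, a factor that also induces Sesn2 and Atf3, 2 were called higher (Phlda3 and Ccng1) and 1 lower (Btg2) in Skiv2l fl/fl K14-Cre epidermis (limma), beside 8.99% and 25.4% of all tested genes, so the count higher is near that of all genes. Phlda3, a repressor of AKT, measured 21.4 and 23.6 FPKM in control pups and 39.9 and 44.4 in knockout pups. Cdkn1a, the cell cycle inhibitor p21, measured 123 and 128 and then 103 and 118, a log2 fold change of -0.19 (limma adjusted p = 0.17). The median log2 fold change of the 15 was 0.11. After equalizing library medians 5 of them were called higher and 0 lower, beside 1894 and 1623 of all 13609 tested genes.

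Of the 22 genes of the immediate early response and of tissue handling, 5 were called higher (Ier3, Junb, Fosl1, Jun and Socs3) and 2 lower (Jund and Btg2), beside the same shares of all genes. After equalizing library medians 6 of the 22 were called higher and 0 lower, beside 1894 and 1623 of all 13609 tested genes. Ier3, a survival factor of stressed cells, measured 10.1 and 8.65 FPKM in control pups and 32.03 and 58.9 in knockout pups. In 15 of the 22 the second knockout library was above the first, and the share among all tested genes was not computed.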
